A study of Rattus norvegicus with 40 samples.

Results

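The comparison described here set rat left common carotid arteries 4 days after balloon injury with recombinant tissue plasminogen activator (tPA) against left carotids of sham-operated rats on the same day. The arrays were chosen by their titles, which gave 3 arrays of injured arteries with tPA and 6 sham arrays, 9 of the 40 arrays in the series. All rats were male Wistar-Kyoto animals of 3 months. In the injured rats a Fogarty balloon catheter was drawn through the left common carotid artery under ketamine, and tPA at 20 nmol/kg in pluronic gel was laid on the adventitial, outer side of the vessel. The labels list neither gel nor tPA for the sham-operated rats, so injury, gel and tPA cannot be told apart in this comparison alone. Injured left carotids with plain gel on day 4 (3 arrays), injured left carotids with tPA and sham carotids on day 1 (3 and 4 arrays), the uninjured right carotids of tPA rats on day 4 (3 arrays) and intact left carotids of rats without an operation (6 arrays) are used where they bear on it. Each array received RNA from a pool of 3 vessels, so a replicate is a pool. Standard errors and p-values rest on the spread between pools within groups, estimated over all 40 arrays. They do not measure the spread of the tPA and sham pools alone. Total RNA was hybridised to Affymetrix rat genome arrays, which give 1 intensity per probe set.

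Balloon injury strips the endothelium and stretches the wall of the artery. Smooth muscle cells of the media then leave their contractile state, divide and move inward, while monocytes and other blood cells enter the wall, and new matrix is laid down. tPA is a serine protease that turns plasminogen into plasmin, which digests fibrin and activates other proteases. The tPA applied was protein, so a reading of Plat, the gene that encodes tPA, reports messenger RNA made by the vessel. In whole vessels, fewer cells of a type and less RNA per cell cannot be told apart.

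The 3 tPA arrays did not form a tight group, and the array labelled replicate 1 lay near uninjured arteries. An injury index was taken from a fit without any tPA array: the mean of 789 probe sets that were higher with gel on day 4 than in sham arteries, minus the mean of 571 that were lower. It was -0.56, 1.12 and 1.57 in tPA replicates 1, 2 and 3. The 6 sham arrays lay from -1.42 to -1.02, the intact arrays from -0.895 to -0.484 and the left gel arrays from 2.04 to 2.13. Replicate 1 therefore fell inside the intact range, and replicates 2 and 3 fell between sham and gel. Its log2 values differed from the mean of the sham arrays with an SD of 0.731 and from the mean of the left gel arrays with an SD of 1.09; for replicates 2 and 3 the SDs were 0.991 and 1.21 from sham and 0.728 and 0.819 from gel. In the right carotids of tPA rats the array labelled replicate 1 had an index of 1.01, above -0.902 and -0.277 in the other two. Because the choice to leave out left replicate 1 rests on the outcome itself, values and counts without it use the same threshold as a description only, not as a test of the comparison. Whether the left and right arrays labelled replicate 1 carry the right labels was not tested, and this doubt touches every value over the 3 tPA arrays.

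**Figure D1:**
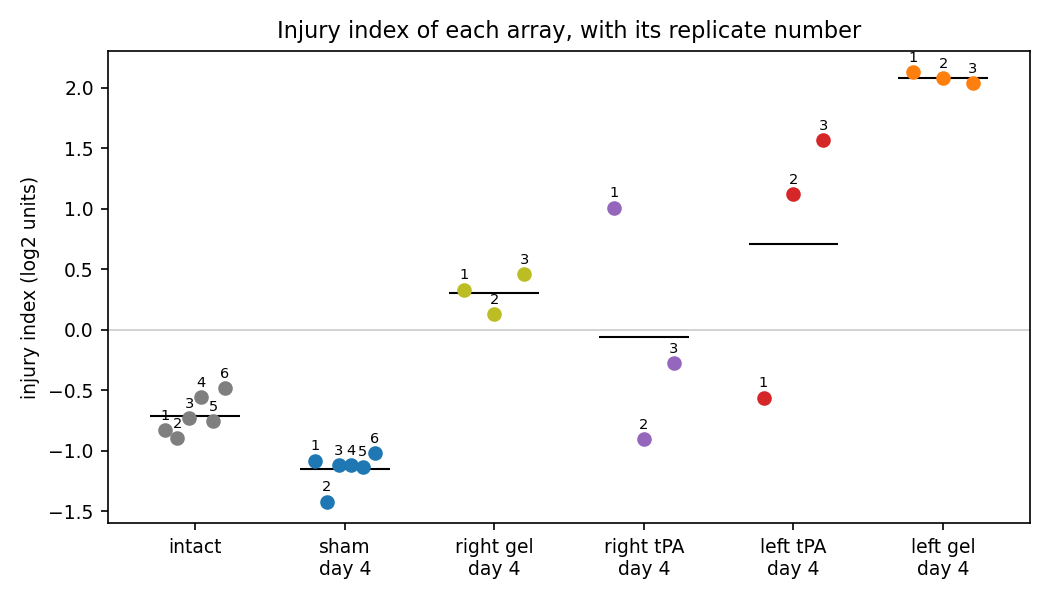
Injury index (vertical axis, log2 units) of each day 4 array and of the intact arrays; each point is 1 array with its replicate number, and the bar is the group mean. Left tPA replicate 1 at -0.56 sits in the range of the intact arrays, and replicates 2 and 3 at 1.12 and 1.57 sit between the sham and the left gel arrays; the sham and left gel arrays were used to choose the probe sets.

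RNA quality readings overlapped between the groups: the ratio of 3′ to 5′ signal was 11.02, 13.43 and 16.02 for beta-actin in tPA arrays and 11.83 to 23.69 in sham arrays. Median intensities were 140.4, 150.6 and 130 in tPA arrays and 122.2 to 155 in sham arrays. The groups differed in 1 respect. Of 55 probe sets whose upper quartile over all arrays was above 2000 but which read below 100 on at least 1 array, 1, 10 and 19 read below 100 in tPA replicates 1, 2 and 3, against 0 to 5 in sham and 2 to 8 in left gel arrays. These probe sets are included in the counts, and genes they stand for are marked as near-0.

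Values below 23.3 were raised to that floor before log2 was taken, and differences are on the log2 scale, tPA minus sham, with n = 3 and 6 arrays. The SE uses the spread shared by all groups, and the tPA arrays can be wider apart. For Rps16, described below, the SD was 2.18 between tPA arrays and 0.56 between sham arrays, with an SE of 0.57. Of 5827 probe sets tested, 342 (5.87%) passed an adjusted p of 0.05 in limma, 230 higher and 112 lower with tPA. By gene, with the brightest probe set standing for each of 3546 genes, 167 (4.71%) rose and 64 (1.8%) fell. The median gene differed by 0.07. Single arrays decided much of this count: 877 probe sets passed without replicate 1, 22 without replicate 2 and 6 without replicate 3. Leaving out a sham array gave 233 to 398. With only the tPA and sham arrays of day 4 in the model, and so fewer arrays behind the estimate of spread, 16 passed, and with arrays weighted by their quality 1400 passed. Without the near-0 probe sets 327 passed. Of the 342 probe sets, 326 also passed without replicate 1, all in the same direction. Without that array 396 genes (11.2%) were higher and 186 (5.25%) lower.

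Among the 167 genes that rose, replicate 2 read above all 6 sham arrays for 167, replicate 3 for 166 and replicate 1 for 102, and all 3 arrays did so for 101. Replicate 1 lay inside the sham range for 64 of these genes. Of the 64 genes that fell, 37 read below all sham arrays in all 3 tPA arrays, and replicate 1 lay inside the sham range for 24. Over all 3546 genes, all 3 tPA arrays read above all sham arrays for 5.81% and below them for 3.21%. The genes that rose or fell were chosen by passing on these same arrays, which favours replicates 2 and 3 reading beyond sham. Among them, replicate 1 read beyond the sham range for part of the genes only.

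**Figure D2:**
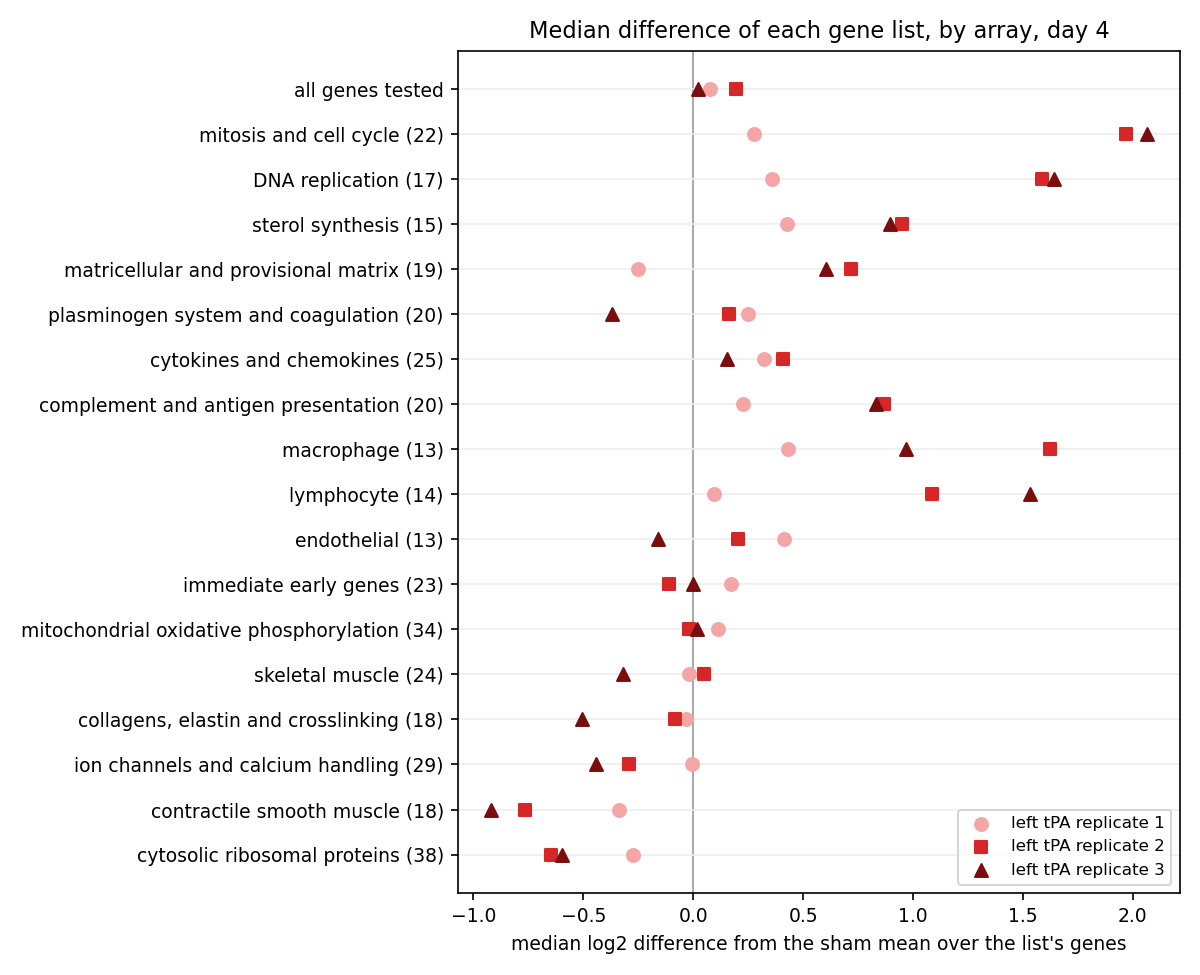
Median log2 difference from the sham mean (horizontal axis) over the genes of each list, with the number of genes tested in parentheses, for each of the 3 left tPA arrays on day 4. Replicates 2 and 3 lie together and far to the right for mitosis (1.97 and 2.06) with replicate 1 at 0.27, while the contractile list lies to the left in all 3 arrays.

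Among genes of cell division many rose and none fell. Of 22 tested genes of mitosis and the cell cycle, 12 rose and none fell, with a median difference of 1.21; of 17 genes of DNA replication 7 rose and none fell, with a median of 1.25. Cdk1, the kinase that drives entry into mitosis, read 151, 1089 and 1219 in tPA replicates 1, 2 and 3 and 33.6, 81 and 106 (lowest, median, highest) in sham arrays. All 3 tPA arrays were above every sham array, replicate 1 only slightly. The difference was 3.09 ± 0.59 (SE), 8.49-fold (95% interval 3.71 to 19.5), with limma adjusted p = 0.00395, and 4.06 without replicate 1.

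Top2a, the topoisomerase that untangles replicated DNA, read 259.6, 3836 and 3087 with tPA and 136, 178 and 304 in sham arteries. Replicate 1 lay inside the sham range and the other arrays far above it, so the groups overlapped. Its difference was 2.96 ± 0.61 (limma adjusted p = 0.0101) and 4.21 without replicate 1; a second, dimmer probe set of Top2a differed by 0.32 and did not pass. Ccnb1, the cyclin partner of Cdk1, gave 211, 934 and 1312.5 against 44.8, 109 and 326, a difference of 2.60 ± 0.54 (limma adjusted p = 0.0101). H2az1, a histone variant that belongs to the list as a gene of dividing cells, was above the sham range in all 3 arrays: 1977, 5051 and 4617 against 412, 954 and 1472. It rose by 1.92 ± 0.36 (limma adjusted p = 0.00331). In intact arteries it read 1046 to 2229, which covers replicate 1.

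Stmn1, which regulates microtubules of the spindle, rose by 2.47, Racgap1, needed for cytokinesis, by 2.25 and the G1 cyclin Ccnd1 by 2.14 (limma adjusted p = 0.0135, 0.0135 and 0.0243). Among replication genes, Mcm6, a subunit of the helicase that opens DNA, read 355, 4187 and 4382 against 259, 349 and 793 in sham arrays, so replicate 1 was level with the sham median. It rose by 2.16 ± 0.62 (limma adjusted p = 0.0351). Rfc4 of the clamp loader rose by 1.72 ± 0.34 (limma adjusted p = 0.00724). Another probe set of Rfc4 passed at 1.89, and a further one differed by 0.41 and did not pass. Rpa3, of the complex that coats single-stranded DNA, behaved otherwise, with 1288, 994 and 2270.0 against 122, 396 and 752: replicate 1 was above replicate 2, and no tPA array overlapped the sham range. For Rpa3 intact arteries read 630 to 911, and the uninjured right carotids of tPA rats read 646, 1380 and 1536. Pcna, the sliding clamp, rose by 0.85 ± 0.25 (limma adjusted p = 0.039), from a sham median of 2168 to 3190.2, 3956 and 4491. A dimmer probe set of Pcna differed by 0.98 and did not pass. Without replicate 1, 14 of 22 mitosis genes and 13 of 17 replication genes were higher past the threshold, with medians of 1.69 and 1.66.

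The promoters of the mitosis genes are shown because genes of the late cell cycle are known to share CCAAT boxes and a cell-cycle element called CHR near their start. Of the 22 genes, 17 were matched by symbol in RefSeq's GRCr8 promoter windows (250 bases before to 50 after the gene start); Racgap1, Ccnd1, Ccnd2, E2f5 and Foxm1 were not. The CCAAT box was searched as CCAAT on both strands, so that it reads ATTGG where it lies on the other strand, and it was present in 12 of 17 windows (70.6%), against 37.7% of 27457 windows of the same length. The CHR element was searched as TTTGAA on both strands, and it was present in 10 of 17 windows (58.8%), against 18.1% of all windows. Of the 10 matched genes that rose, 7 held CCAAT and 7 held TTTGAA. Of the 7 matched genes that did not pass, 5 held CCAAT and 3 held TTTGAA, so CCAAT did not mark the genes that rose within the list. A match describes letters only, not a site in use. The 250 bases before the start of 4 genes that rose follow, each on the gene's own strand, with the matches in capitals: Cdk1 at chr20:19265043-19265292 (plus strand), Ccnb1 at chr2:33655226-33655475 (minus), Top2a at chr10:84473094-84473343 (minus) and Cdc20, which activates the ligase that ends mitosis, at chr5:137255800-137256049 (minus).
Cdk1: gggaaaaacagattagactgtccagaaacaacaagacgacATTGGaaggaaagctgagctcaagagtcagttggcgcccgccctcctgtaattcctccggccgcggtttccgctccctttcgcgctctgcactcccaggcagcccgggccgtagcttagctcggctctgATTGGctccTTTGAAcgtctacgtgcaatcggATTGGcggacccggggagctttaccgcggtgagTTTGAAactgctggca
Ccnb1: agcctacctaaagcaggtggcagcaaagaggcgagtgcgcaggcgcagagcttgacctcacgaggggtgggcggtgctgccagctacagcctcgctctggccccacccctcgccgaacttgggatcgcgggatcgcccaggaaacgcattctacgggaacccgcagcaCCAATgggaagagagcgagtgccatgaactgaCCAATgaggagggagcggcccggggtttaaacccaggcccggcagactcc
Top2a: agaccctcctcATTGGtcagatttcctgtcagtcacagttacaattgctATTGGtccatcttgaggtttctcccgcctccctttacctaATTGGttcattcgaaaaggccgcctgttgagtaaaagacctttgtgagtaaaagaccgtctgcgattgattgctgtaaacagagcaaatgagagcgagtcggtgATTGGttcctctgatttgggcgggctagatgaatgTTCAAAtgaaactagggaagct
Cdc20: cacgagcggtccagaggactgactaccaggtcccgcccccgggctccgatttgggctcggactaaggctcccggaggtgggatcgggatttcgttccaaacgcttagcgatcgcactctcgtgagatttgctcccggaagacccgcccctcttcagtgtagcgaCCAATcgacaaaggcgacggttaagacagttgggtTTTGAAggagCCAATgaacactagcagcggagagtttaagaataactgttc
In these stretches Cdk1 held 3 CCAAT and 2 TTTGAA matches, Top2a 4 and 1, Cdc20 2 and 1, and Ccnb1 2 CCAAT matches and no TTTGAA. The matches do not overlap each other. Cdc20 rose by 1.51 (limma adjusted p = 0.0355).

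Some markers of blood-borne cells rose. Of 13 macrophage markers 5 rose and none fell (median 1.20), and of 14 lymphocyte markers 3 rose and none fell (median 1.03). Differences were below 0 for 4 macrophage markers and 1 lymphocyte marker. Without replicate 1, 1 macrophage marker was lower past the threshold. Summed intensities of the macrophage list were 11376, 17730 and 14016 in tPA replicates 1, 2 and 3 and 7384.8 to 10893 in sham arrays; those of the lymphocyte list were 2703.3, 5663.4 and 9891.4 against 1858.2 to 2505.8. All 3 tPA arrays exceeded the sham range in both sums. None of 5 neutrophil markers and none of 4 mast cell markers passed, lists too short to tell where 4.71% of all genes rose. The part of such cells in the other differences was not tested.

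Ptprc, which encodes the leukocyte surface phosphatase CD45, read 36.8, 851 and 1784 with tPA and 1.4, 31.8 and 77.6 in sham arteries. Replicate 1 was inside the sham range, and replicates 2 and 3 were far above it. The difference was 3.42 ± 1.02 (limma adjusted p = 0.039) and 5.11 without replicate 1; a second, dimmer probe set of Ptprc differed by 0.44 and did not pass. Ptpn6, the phosphatase SHP-1 of blood cells, read 306, 1073 and 1353 against 27, 70.6 and 197, so all tPA arrays were above all sham arrays (3.42 ± 0.81, limma adjusted p = 0.0141), but a second probe set of Ptpn6 differed by 0.68 and did not pass. Ly86, a partner of a Toll-like receptor homologue in antigen-presenting cells, rose by 3.23 and Rgs18, a regulator of G protein signalling in platelets and other blood cells, by 3.12 (limma adjusted p = 0.0135 and 0.0187). Ly86 overlapped the sham range in replicate 1, which read 112 against a sham high of 176. Rgs18 read 19 in replicate 1 and at most 26.1 in sham arrays, near the floor, so its fold is understated.

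Mmp12, the elastase of macrophages, read 131, 1262 and 1772 with tPA and 39.2, 80.4 and 124 in sham arteries. All 3 arrays lay above the sham range, replicate 1 by a small margin. It rose by 3.14 ± 0.69, 8.82-fold (95% interval 3.35 to 23.3; limma adjusted p = 0.0131). Aif1, a calcium-binding protein of activated macrophages, Lgals3, the lectin galectin-3, Ctss, a lysosomal protease, and Cd14, the coreceptor for endotoxin, rose by 2.62, 1.62, 1.20 and 1.33 (limma adjusted p = 0.0243, 0.023, 0.0263 and 0.0452). Dimmer probe sets of Aif1 differed by 0.89 and 0.14 and one of Cd14 by 0.21, and none passed. Among lymphocyte markers, Cd37 and Cd53, tetraspanins of the leukocyte membrane, rose by 2.12 and 2.60 (limma adjusted p = 0.0151 and 0.0342).

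Of 25 cytokines and chemokines 3 rose and none fell, with a median of 0.23. Ccl2, the chemokine that draws monocytes, read 712, 3101 and 4610.5 with tPA and 240.1, 412 and 732 in sham arteries. Replicate 1 was just under the highest sham array, and the others were well above it. The difference was 2.46 ± 0.64, 5.51-fold (limma adjusted p = 0.023). A dimmer probe set of Ccl2 differed by 1.60 and did not pass. Il18, a cytokine that induces interferon gamma, rose by 2.67 and Pf4, the platelet chemokine, by 1.61 (limma adjusted p = 0.0169 and 0.022). A dimmer probe set of Il18 differed by 1.62 and did not pass. Pf4 was even across the tPA arrays: 2598, 2244 and 3304, all above the sham range of 733 to 1082. The uninjured right carotids of tPA rats were as high, at 3749.5, 3142 and 3881.7, so this rise was not confined to the injured artery.

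Of 20 genes of complement and antigen presentation 5 rose and 1 fell, with a median of 0.63. RT1-Db1, a chain of the rat class II antigen-presenting molecule, read 567, 3578 and 2656 against 129, 328 and 380.1 in sham arrays, with no overlap (2.62 ± 0.67, limma adjusted p = 0.0207). RT1-Ba, of another class II molecule, read 323 in replicate 1, below all sham arrays, and 2409.5 and 2334 in the others (1.51 ± 0.43, limma adjusted p = 0.0347). The immunoproteasome subunits Psmb9 and Psmb8, by contrast, were as high in replicate 1 as in the others: Psmb9 read 1848, 1407 and 2421 against 451 to 1121 and rose by 1.34, and Psmb8 read 1346, 1047 and 1466 against 338 to 855 and rose by 1.07 (limma adjusted p = 0.0277 and 0.0328). The uninjured right carotids of tPA rats also lay above the sham range for both. They read 1801, 1819.5 and 2129.4 for Psmb9 and 1163.2, 981.4 and 1040 for Psmb8. B2m, the light chain of class I molecules, fell by 0.93 (limma adjusted p = 0.0271). C3, the central complement component, read 28.5, 64.2 and 305 against 11.5, 20.2 and 45.2 and did not pass (1.60 ± 0.83, limma adjusted p = 0.258).

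**Figure D3:**
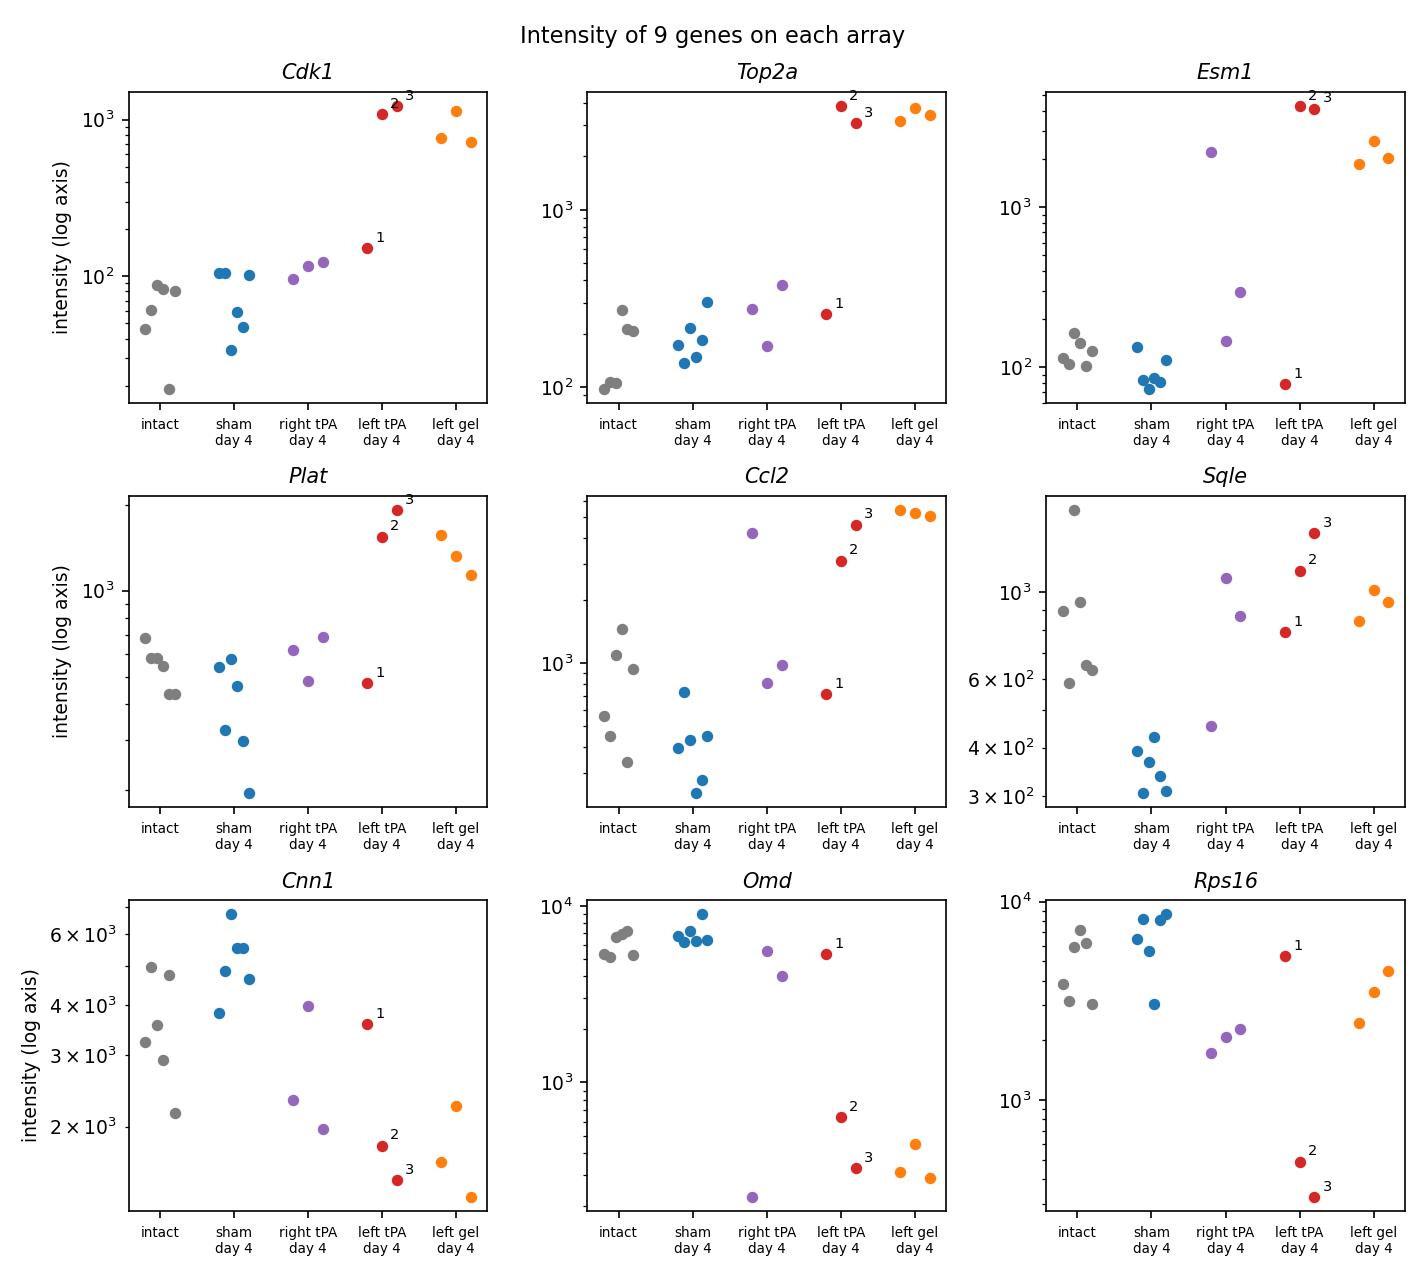
Intensity (log axis, arbitrary units of the deposited table) of 9 genes on each intact, sham day 4, right tPA day 4, left tPA day 4 and left gel day 4 array; each point is 1 array, and the left tPA arrays carry their replicate numbers. Replicate 1 lies with the sham arrays for Top2a (259.6) and Esm1 (78.6), whereas for Sqle all 3 left tPA arrays (790.1 to 1422.5) lie above the sham arrays and inside the spread of the intact arrays.

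Of 19 genes of the matricellular and provisional matrix list 4 rose and none fell, with a median of 0.48 and 8 differences below 0. Esm1, the secreted proteoglycan endocan, had the largest rise of any gene outside the near-0 group: it read 78.6, 4279.7 and 4131 with tPA and 73.4, 84.8 and 133 in sham arteries. The whole rise came from replicates 2 and 3. Its difference was 3.59 ± 0.94 (limma adjusted p = 0.023) and 5.50 without replicate 1. Tnn, tenascin-W, read 153, 734 and 2199.5 against 62.3, 98.1 and 125, with no overlap (2.76 ± 0.58, limma adjusted p = 0.0101). Cd44, the hyaluronan receptor, rose by 2.01 and Vcan, the large proteoglycan versican, by 1.26 (limma adjusted p = 0.0266 and 0.0348), each with all 3 arrays above sham. Spp1, osteopontin, read 1252, 5609 and 4444.5 against 1374, 1612 and 2157; replicate 1 was below all sham arrays, and the gene did not pass (0.92 ± 0.46, limma adjusted p = 0.24). Fn1, fibronectin, with a difference of -0.33, and Timp1, an inhibitor of matrix metalloproteinases, with 0.45, did not pass (limma adjusted p = 0.345 and 0.433).

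Of 18 genes of collagens, elastin and crosslinking 1 rose and 2 fell. Col12a1, a collagen that decorates fibrils, rose by 1.71, and P4hb, a subunit of the enzyme that hydroxylates collagen, fell by 1.20 (limma adjusted p = 0.0151 and 0.0118). P4hb read 5863, 2033 and 2391 against 5437, 7352 and 8517, so replicate 1 overlapped the sham range, and a second bright probe set of it differed by -0.12 and did not pass. Col1a1, the main fibrillar collagen, read 7317, 6552 and 4616 against 6775, 10174 and 11948 (-0.66 ± 0.22, limma adjusted p = 0.0721). A further probe set of Col1a1 read 8.4, 173.4 and 0.1 against 927 to 9050.5 and passed at -6.44, so probe sets of this gene disagreed. Eln, elastin, was among the near-0 probe sets: it read 124, 0.1 and 0.2 against 2323, 4800.0 and 7205, a difference of -6.75 ± 1.06 (limma adjusted p = 0.000692) whose size is set by the floor. Col3a1, at 4026, 559.7 and 10.2 against 4305 to 11848.5, did not pass (limma adjusted p = 0.0709), and a second probe set of it differed by 0.04. The other near-0 genes that fell were Tuba1b, a tubulin, at 2325, 0 and 125 against 4557 to 9632, Grn, progranulin, at 2620.3, 294 and 42 against 6004 to 9368, Fabp6, a carrier of bile acids, and Cd63, a tetraspanin of endosomes. The last 2 are named, after their values were seen, because these genes are 5 in all. A second probe set of Grn differed in the other direction, by 0.63, and did not pass. Omd, osteomodulin, a small leucine-rich proteoglycan, had the largest fall outside that group, level with Psma7 and Rps16 below: 5319.9, 636 and 326 against 6266, 6580.1 and 9000.4 (-2.74 ± 0.72, 6.70-fold lower, limma adjusted p = 0.023). Every tPA array was below every sham array, replicate 1 by little.

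Both plasminogen activators and the urokinase receptor rose. Of 20 genes of plasminogen activation and coagulation 5 rose and none fell, though the list's median was only 0.12. Plat read 475, 1547 and 1915 with tPA and 196, 394 and 576 in sham arteries; replicate 1 lay inside the sham range. It rose by 1.58 ± 0.36, 3.00-fold (95% interval 1.80 to 4.99; limma adjusted p = 0.0135), and differed by 2.20 without replicate 1. Plau, urokinase, read 219, 668 and 1288 against 110.5, 190.1 and 206, and Plaur, the urokinase receptor, read 287, 1118 and 555 against 60.1, 148 and 219. In both all tPA arrays were above all sham arrays. Plau rose by 1.70 ± 0.40 and Plaur by 2.09 ± 0.49 (limma adjusted p = 0.0137 for each). Tfpi, the inhibitor of the tissue factor pathway, rose by 1.56 and Pros1, the anticoagulant protein S, by 0.93 (limma adjusted p = 0.0266 and 0.0305).

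For the genes of sterol synthesis that rose, replicate 1 lay above the sham range with the other arrays. Over the whole list its median was 0.43, against 0.95 and 0.89 in replicates 2 and 3. Of 15 genes 6 rose and none fell, all 15 differences were above 0, and the median was 0.82. Each of the 6 read above all sham arrays in all 3 tPA arrays, against 5 of 12 for the mitosis genes that rose. Those genes were chosen by passing on the same arrays, which shapes these shares. Over all members, passed or not, all 3 arrays were above sham for 6 of 15 sterol genes and 6 of 22 mitosis genes. Sqle, squalene epoxidase, read 790.1, 1137 and 1422.5 against 306, 353 and 426 (1.62 ± 0.30, 3.07-fold, limma adjusted p = 0.00326). Cyp51, the sterol demethylase, read 1951, 2519 and 3220.4 against 741, 889.9 and 1164 (1.46 ± 0.34, limma adjusted p = 0.014), and its 3 dimmer probe sets differed by 0.93, 1.02 and -0.03 and did not pass. Insig1, the sterol-sensing brake on the pathway, rose by 1.39, Lss, lanosterol synthase, by 0.97, Msmo1, another demethylation enzyme, by 0.89 and Idi1, the isopentenyl diphosphate isomerase, by 1.46 (limma adjusted p = 0.023, 0.023, 0.023 and 0.039). Dimmer probe sets of Insig1 and Lss each differed by 0.66 and did not pass, and in both replicate 1 lay inside the sham range.

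The sham arrays themselves were low for these genes. In intact arteries Sqle read 586 to 1626 and Cyp51 1601 to 3268.5, which covers the tPA arrays. Over the 15 genes the sham mean was -0.66 (median) from the intact mean, where the median of all genes was 0.03. The tPA mean was 0.28 from the intact mean for the sterol list, against 1.08 for the mitosis list and 0.11 for all genes. Right carotids of tPA rats read 453, 1091 and 871 for Sqle. Sham means lay below intact means for other genes that rose, such as Rpa3 (-1.24), Fabp5 (-1.22), Egr2 (-1.12), Ccl2 (-0.85) and H2az1 (-0.84). The same held for Ccnd1 (-0.97), Stmn1 (-0.94), Ly86 (-0.86), Ptprc (-0.86), Psat1 (-0.84), Ptpn6 (-0.78) and RT1-Db1 (-0.735). Sham means did not lie below intact means for others, such as Cdk1 (0.25), Top2a (0.28) and Tnn (0.25). What lowered the sham values was not tested.

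**Figure D4:**
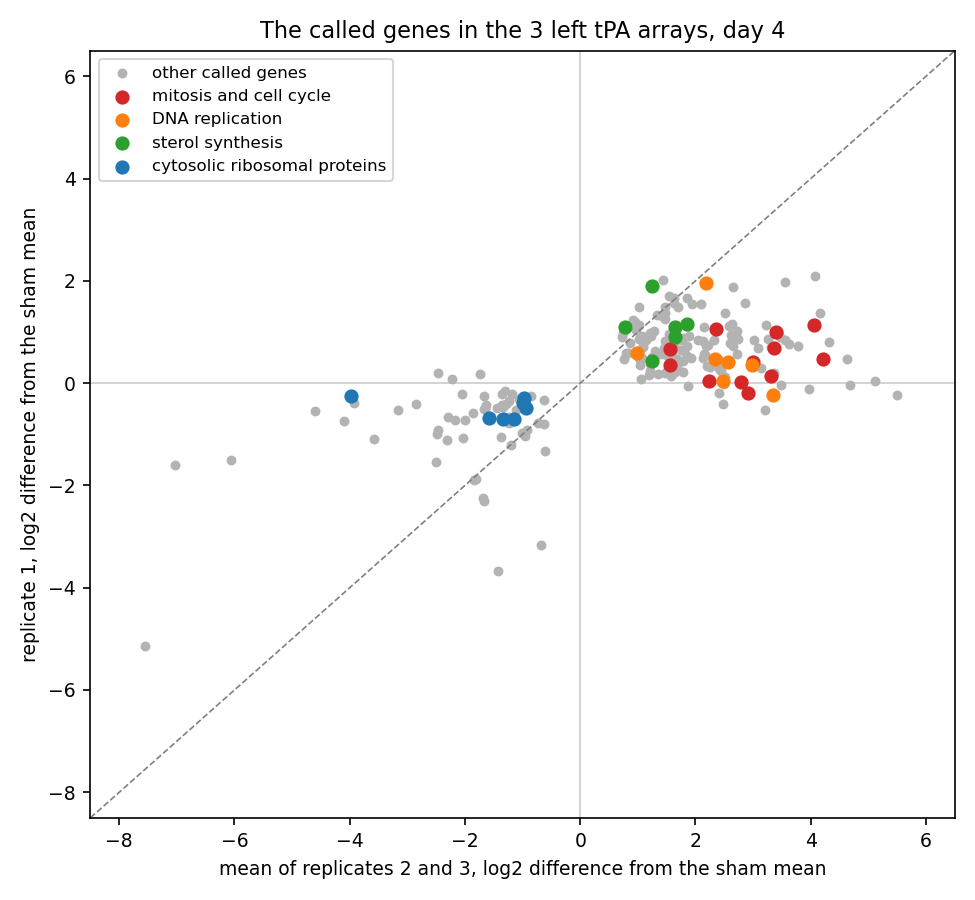
Log2 difference from the sham mean in tPA replicate 1 (vertical) against the mean of replicates 2 and 3 (horizontal) for the 231 genes that passed; each point is 1 gene, and the dashed line marks equal differences. Most mitosis and replication genes lie far below the line on the right, and sterol genes lie nearer to it; ribosomal protein genes, apart from Rps16, lie near it on the left.

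Of 18 tested genes of the contractile smooth muscle state 2 fell and none rose, 17 differences were below 0, and the median was -0.69; without replicate 1, 8 were lower past the threshold, with a median of -0.85. Cnn1, calponin, which binds actin in contractile cells, read 3586, 1793 and 1475 against 3823, 5201 and 6718 in sham arrays, and all tPA arrays were below all sham arrays. It fell by 1.27 ± 0.32, 2.41-fold (95% interval 1.53 to 3.81; limma adjusted p = 0.0206). In intact arteries it read 2157 to 4962, which overlaps both groups. Acta2, smooth muscle actin, read 4965, 6328 and 4976.5 against 6047, 9279 and 13014 and fell by 0.68 ± 0.21 (limma adjusted p = 0.0492); without replicate 1 its difference was -0.62 and no longer passed. Its 2 dimmer probe sets differed by -0.27 and -1.85. Myh11, smooth muscle myosin, read 6029, 2265 and 2498 against 5903, 7092 and 9544 and did not pass (-1.17 ± 0.38, limma adjusted p = 0.0593), with replicate 1 inside the sham range; a dimmer probe set passed at -4.01 and another differed by 0.36. These markers of arterial smooth muscle were bright on all 9 arrays. The CArG box, the element named for contractile genes, was searched as CCWWWWWWGG, where W is A or T. Variants with another base in that run, or boxes outside the window, would be missed. An exact match was found in 1 of 14 matched promoter windows (7.14%) and in 1.64% of all windows. The match was in Dmd, which did not pass (-0.08, limma adjusted p = 0.958). The windows of Cnn1 and Acta2, which fell, held no exact match, which does not show that they lack CArG boxes.

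Of 26 vasoactive receptors and ligands 1 rose and 2 fell. Of 29 genes of ion channels and calcium handling 1 fell, and of 13 of nitric oxide and cyclic GMP 1 fell. Over all genes tested 4.71% rose and 1.8% fell, so such small counts do not set these lists apart. P2rx1, an ATP-gated channel, fell by 1.91 ± 0.51 (354, 136 and 171 against 339, 898 and 1113; limma adjusted p = 0.0243). Adcy5, an adenylyl cyclase, read 66.3, 379.7 and 266 against 558, 803 and 1602. Here replicate 1 was the lowest of the 3, and no array overlapped; the gene fell by 2.17 ± 0.40 (limma adjusted p = 0.00291) and differed by -1.42 without replicate 1. Npr1, the receptor for atrial natriuretic peptide, fell by 1.05, Atp2a2, the calcium pump of the reticulum, by 0.97 and Ece1, the endothelin-converting enzyme, by 0.74 (limma adjusted p = 0.0255, 0.023 and 0.0271). Ece1 read 738, 849.8 and 687 in tPA arrays and 1189 to 1322 in sham arrays. Dimmer probe sets of Npr1 differed by -0.22 and -0.67 and one of Ece1 by 0.34, and none passed; of the 3 other probe sets of Atp2a2 1 passed, at -2.05. Adora2b, an adenosine receptor, rose by 1.63 (limma adjusted p = 0.0173). Adra1d, the alpha 1D adrenergic receptor, read 438, 214 and 119 against 399.8, 496 and 596 and did not pass (-1.15 ± 0.41, limma adjusted p = 0.0876).

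Of 38 genes of cytosolic ribosomal proteins 7 fell and none rose, with a median of -0.67. Rps16, of the small subunit, read 5327, 490.4 and 326 against 3064, 7288 and 8654 and fell by 2.74 ± 0.57 (limma adjusted p = 0.0101), entirely through replicates 2 and 3. Rps6, which is phosphorylated when growth signals act, read 5126, 4784 and 2937 against 5909, 8399 and 11408 and fell by 1.00 ± 0.24, with no overlap (limma adjusted p = 0.0148), but a second bright probe set of Rps6 differed by -0.16 and did not pass. Rpl3 and Rps3a fell by 0.74 and 1.28 (limma adjusted p = 0.0371 and 0.0173). Another probe set of Rpl3 differed by -4.16 and did not pass. Against intact arteries the list's median was -0.37 with tPA and 0.31 in sham arteries. Psma7, a proteasome subunit, and Lamp1, a lysosomal membrane protein, fell by 2.74 and 2.27 (limma adjusted p = 0.0278 and 0.0182), but a second probe set of Psma7 differed by 0.36 and one of Lamp1 by -0.94, and neither passed.

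Several other genes had large changes. Psat1, an enzyme of serine synthesis, read 214, 3989.5 and 3596.5 against 99.6, 159 and 207, with replicate 1 barely above the sham range (3.24 ± 0.59, limma adjusted p = 0.00291). Fabp5, a fatty acid carrier, read 935, 3737 and 2083 against 157, 236 and 383 and rose by 3.02 ± 0.48, 8.11-fold (limma adjusted p = 0.000692); replicate 1 was above the sham range but the lowest of the 3. Slc2a4, the insulin-regulated glucose transporter of muscle and fat, fell by 1.95 (698, 218 and 262 against 904, 1309.7 and 1800.0; limma adjusted p = 0.0263). A dimmer probe set of Slc2a4 differed by -1.30 and did not pass. Prkaa2, a catalytic subunit of the energy sensor AMPK, fell by 2.00 to 65.4, 6.2 and 12.1 against 102 to 176 (limma adjusted p = 0.039), where readings of replicates 2 and 3 are under the floor. Paxx, a DNA repair factor, fell by 2.18 and Cyp2c22, a cytochrome P450, by 2.03 (limma adjusted p = 0.0147 and 0.0243).

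Among 23 immediate early genes 3 rose and 1 fell. Egr2, a zinc finger factor, read 306, 1849.8 and 2203 against 85.9, 193 and 263 (2.65 ± 0.62, limma adjusted p = 0.0136), and Klf4, a factor that represses contractile genes, read 6264, 3700.5 and 5649 against 1064, 2479.7 and 3438 (1.18 ± 0.31, limma adjusted p = 0.0239). A dimmer probe set of Klf4 differed by 1.03 and did not pass. Klf4 was highest in replicate 1, and the uninjured right carotids of tPA rats were also above the sham range, at 5893, 5329 and 7472. Dusp5, a phosphatase of the kinase ERK, rose by 1.05, and Egr1 fell by 1.00 (limma adjusted p = 0.0289 and 0.0263); 3 other probe sets of Egr1 differed by 0.34, -0.07 and -0.13. Ngfr, the low-affinity neurotrophin receptor, fell by 1.57 (limma adjusted p = 0.0121), while a second probe set of Ngfr differed by 0.09. Of 13 endothelial markers 3 rose, Esm1, Tfpi and Vcam1, which encodes an adhesion molecule also made by activated smooth muscle (1.42, limma adjusted p = 0.023), and Pecam1, of endothelial junctions, fell by 0.85 (limma adjusted p = 0.0347). Pecam1 read 59.9, 126 and 77.7 against 122, 151 and 184.

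In several lists no gene passed, where over all genes tested 4.71% rose and 1.8% fell. They were 34 genes of oxidative phosphorylation (median 0.03), 30 of heme, iron and antioxidant defence, 12 of the IGF system, 10 of the circadian clock and 8 integrins. Of 25 growth factors and receptors none rose and Ngfr fell, and of 21 genes of TGF-beta, BMP and activin signalling only Ltbp1, which tethers latent TGF-beta to matrix, fell (1.23, limma adjusted p = 0.0472). None of 24 skeletal muscle markers and none of 7 thyroid markers passed. Given the shares over all genes, the absence of calls does not set lists of these sizes apart. Summed skeletal muscle readings were 7382.8, 7826.6 and 6470.4 with tPA and 7466.1 to 10662 in sham arrays.

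Injured arteries with plain gel share the sham arrays, so their differences are given beside those with tPA, and the test is the direct contrast. Against sham, 449 genes (12.7%) were higher and 287 (8.09%) lower with gel. Of the mitosis list 14 were higher and 2 lower with gel (median 1.26), and of the contractile list 9 were lower (median -1.01). Cdk1 differed from sham by 3.63 with gel and 3.09 with tPA, Ccl2 by 3.74 and 2.46, Cnn1 by -1.59 and -1.27, and Plat by 1.83 and 1.58. The direct contrast of tPA with gel called 7 of 5827 probe sets (0.12%), 4 higher and 3 lower with tPA; 453 had an unadjusted p under 0.05. Without replicate 1 it called 5, of which 1 was among the 7. The low count does not show that the arteries were alike.

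Adra1d shared the smallest adjusted p in that contrast with a Dbp probe set: the tPA arrays read 438, 214 and 119 and the gel arrays 18.9 to 69. No tPA array overlapped the gel arrays, and the difference was 2.62 (limma adjusted p = 0.0192). Without replicate 1 the difference was 2.13 and did not pass. Dbp, a clock-controlled factor, read 564.2, 246.7 and 329.4 against 21.8 to 51.6 with gel in a dimmer probe set (3.56, limma adjusted p = 0.0192). Tgfb3, in a second probe set, read 3834, 2998 and 3325 against 782.8 to 1010.7 (1.91, limma adjusted p = 0.0213). Arhgap10, a GTPase-activating protein, differed by 1.19 and Eln, a near-0 probe set, by -5.61 (limma adjusted p = 0.0388 and 0.0488). RT1-Bb, a class II chain, differed by -2.12 in one probe set and Igf1 by -1.60 in one (limma adjusted p = 0.0213 and 0.036). For Dbp, Tgfb3, RT1-Bb and Igf1 these were not the brightest probe sets, and they were named because they make up the 7. Eln remained past the threshold without replicate 1.

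On day 1, with separate sham arrays, 55 genes (1.55%) were higher and 106 (2.99%) lower with tPA. The difference between the days called 79 probe sets, and by gene 39 (1.1%) were higher and 10 (0.282%) lower relative to day 1. With each array scaled to one median the split moved from 69.6% to 89.1% higher, and the median gene from -0.00403 to 0.23, so a direction here is relative to that shift. Top2a differed from sham by -0.88 on day 1 and 2.96 on day 4, a change of 3.84 ± 0.90 (limma adjusted p = 0.0263). Mmp12 went from -1.26 to 3.14 and RT1-Db1 from -1.41 to 2.62 (limma adjusted p = 0.0257 and 0.0334 for the change), and Rpa3 from -1.24 to 2.11 (limma adjusted p = 0.0137). Igf1, the growth factor, went from -3.34 to 1.26, through a near-0 probe set, and Cyp2c11, a cytochrome P450, from -5.40 to -0.93 (limma adjusted p = 0.0238 and 0.0115). Cdk1 went from -0.09 to 3.09 and did not pass (limma adjusted p = 0.0538). Omd was lower on both days, by 3.11 and 2.74, and its change did not pass (limma adjusted p = 0.894). Among the falls relative to day 1, Aldoa, a glycolytic enzyme, Grn, Eln and Col1a2 changed by -4.57, -4.44, -7.38 and -12.35 (limma adjusted p = 0.0198, 0.0191, 0.0191 and 0.0188), the last 3 near-0 probe sets. On day 1 the array labelled left tPA replicate 2 also had a low index, -0.0609 against 1.15 and 0.78, and the count was 123 without it, 248 without left tPA day 4 replicate 1 and 300 without the 4 tPA arrays that stood apart (left replicate 1 and right replicate 1 of day 4, left replicate 2 and right replicate 2 of day 1).

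Against the right carotid of tPA rats on the same day, 2 of 5827 probe sets (0.0343%) passed, and 439 had an unadjusted p under 0.05. Cenpw, a centromere protein, was higher on the left, at 129.8, 916 and 855 against 44.6, 61.4 and 86.5 on the right, and Grn was lower (limma adjusted p = 0.0448 for each). Without left replicate 1 the count was 79, and without the arrays numbered 1 on both sides it was 173. The right array labelled replicate 1 read 2220.0 for Esm1, 4215 for Ccl2 and 224 for Omd, where the other right arrays read 147 and 294, 802.5 and 984, and 5570.5 and 3996. For Cdk1 and Top2a the right array labelled replicate 1 read 95.4 and 278, near the other right arrays (117 and 122.5, 172 and 377). It therefore resembled injured arteries for some of these genes and not for others. Its 3′ to 5′ ratio was 4.951 for beta-actin and 0.3326 for GAPDH, against 10.72 and 15.99, and 3.292 and 8.401, in the other right arrays. It also read 4916 for the neutrophil marker S100a8 (178.6 and 296.8 in the others). For the skeletal muscle markers Eno3 and Myh2 it read 5953 and 4573 (300.8 and 338.5, 106.4 and 96.1 in the others). The cause of these readings was not tested.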

How the data were processed

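The authors deposited 1 table of linear intensities for 8799 probe sets on 40 Affymetrix arrays; the algorithm that summarised probes into these intensities is not given in the sources used here. After 59 control probe sets were removed, values under 23.3 (the 20th percentile) were set to that floor before log2 transformation. The dimmest 2913 probe sets by mean were left out, which left 5827. A linear model with 11 group means over all 40 arrays was fitted in limma 3.58.1 (R 4.3.3; lmFit, eBayes), with Benjamini-Hochberg adjustment over all tested probe sets and a threshold of 0.05. The script was tested on simulated data. A gene was represented by its brightest tested probe set with 1 symbol. Of 8740 probe sets, 7006 had 1 symbol, 308 several and 1426 none, from the platform annotation.

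Genes named were the 10 largest rises and 10 largest falls that passed, with near-0 probe sets apart, up to 5 of smallest p per list, the 4 largest each way in other contrasts, and a fixed set of injury genes. The comparison, members and 35 gene lists were chosen with earlier results of these data known. Replicate numbers did not pair the tPA and sham arrays: same-numbered deviations correlated at -0.0962, 0.0178 and 0.142. Left and right tPA arrays of day 4 with the same number may hold the same rats, which the labels do not settle. Their deviations correlated at -0.24, -0.208 and 0.167, and that contrast was fitted without pairs. Alternatives covered scaling, floor, filter, array weights, moderation, arrays fitted, replicate block and left-out arrays. The number of arrays limits the precision.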

Additional observations from a re-analysis of the deposited data

Results flagged for a closer look

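Among the 6 sham arrays of day 4, single arrays lay far from the rest for 15 of 187 named genes and for 2 array measures; chance gives this in about 1 in 20 groups. On the log2 scale, replicate 4 was low for Col1a2 (8.337), Foxe1 (6.336), Myl9 (10.87) and Rpl3 (12.52). Replicate 5 was low for RT1-Db1 (7.013) and Plau (6.788) and high for Mmp9 (6.894). Replicate 2 was high for C3 (5.498), low for Tyms (5.561) and Uqcrfs1 (10.13), had the lowest injury index (-1.42) and the highest 3′ to 5′ ratio of beta-actin (23.69). Replicate 3 was low for Cfd (8.576) and Cpa3 (4.542), replicate 6 high for Igf2r (10.98) and Ly86 (7.455), and replicate 1 read 4.706 for Rgs18 where the others were at the floor.

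Injured arteries with tPA and with gel differed from each other (limma adjusted p in parentheses) for Eln by -5.61 (0.0488), Adra1d by 2.617 (0.0192) and Arhgap10 by 1.189 (0.0388). The difference from sham with tPA differed between day 4 and day 1 for Aldoa by -4.569 (0.0198), Col1a2 by -12.35 (0.0188), Eln by -7.38 (0.0191), Grn by -4.442 (0.0191) and Ece1 by -1.313 (0.0254). In the other direction it differed for Cyp2c11 by 4.466 (0.0115), Igf1 by 4.6 (0.0238), Mmp12 by 4.401 (0.0257), RT1-Db1 by 4.029 (0.0334), Top2a by 3.845 (0.0263), Rpa3 by 3.347 (0.0137) and Lum by 2.763 (0.0497). Smaller differences of that sign were found for Bmal1 at 2.525 (0.0422), H2az1 at 2.353 (0.0244), Ctsk at 2.158 (0.0238) and Klf4 at 1.74 (0.0467). Eln, Grn, Igf1 and Col1a2 are near-0 probe sets.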

How the results depend on the processing

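The count of 342 probe sets (tPA against sham) stayed within 1.5 times under quantile normalization, median scaling, other filters, a higher floor, trend and robust moderation and without near-0 probe sets, from 264 to 411. It was 1400 with array weights, 16 with only the groups compared, 1053 without the 4 tPA arrays that stood apart and 949 without both day 4 arrays numbered 1, the last 2 chosen after seeing the data. Leaving out single arrays gave 6 to 877. The 7 probe sets of tPA against gel became 12 with no filter, 16 with the higher floor, 339 with array weights, 0 with only the groups compared, 21 without the 4 arrays and 0 to 17 without single arrays. The 79 of day 4 against day 1 became 165 with median scaling, 50 with no filter, 222 with array weights, 300 without the 4 arrays and 18 to 248 without single arrays. The 2 of left against right became 0 with no filter or only the groups compared, 240 with array weights, 1 without near-0 probe sets, 291 without the 4 arrays, 173 without both arrays numbered 1 and 0 to 79 without single arrays. With the replicate block, which pairs arrays by their replicate number, the counts were 0, 0, 18 and 0. Apart from fewer arrays or probe sets, the cause of these shifts was not tested. No named gene reversed direction where it had passed. Of 82 named genes that passed, 79 also passed with array weights, 68 with quantile normalization, 75 with median scaling, 79 without replicate 1, 7 without replicate 2, 4 without replicate 3 and 5 with only the groups compared.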
